A study of Mus musculus with 10 samples.

Results

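The 10 genes followed here encode the ubiquitin ligases best known from wasting skeletal muscle and the transcription factors that switch several of them on. They are the F-box genes Fbxo32, Fbxo30, Fbxo31 and Fbxo21, the muscle RING finger genes Trim63, Trim55 and Trim54, and the forkhead genes Foxo1, Foxo3 and Foxo4. They were taken by name from the 54232 genes of the deposited table, and all 10 were among the 14289 genes expressed highly enough to be tested. Messenger RNA was sequenced from the gastrocnemius, a calf muscle with mostly fast fibers, of 5 homozygous desmin knock-out mice (Des -/-) and 5 wild-type mice (Des wt/wt). All 10 mice carry the strain label B6J.129Sv-Destm1Cba/Cscl, and the methods give an age of 3 months and littermates as controls. A figure legend of the study gives gastrocnemius and the neighbouring plantaris together. The mice are labelled as separate animals, whereas the methods speak of pooled RNA, and each column of the table was used as 1 replicate.

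A muscle that loses mass marks its own proteins with chains of ubiquitin, and the proteasome then degrades them. The ligases choose which proteins are marked. F-box proteins do so as the interchangeable part of SCF complexes, in which Skp1 and Cul1 hold them, whereas the muscle RING finger proteins bind the sarcomere and act without a cullin. FoxO proteins stay outside the nucleus while insulin and IGF1 signal through Akt, and enter it when that signal fades, as in fasting or disuse. Transcripts of Fbxo32 (atrogin-1) and Trim63 (MuRF1) are the usual readouts of this program.

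No rise of these transcripts was detected in desmin knock-out muscle. None of the 10 genes passed the test in the upward direction, none at an unadjusted p under 0.05 either (limma), and 2 passed it in the downward direction: Trim54 fell by 34.8% and Trim55 by 23.3% on the deposited scale. Over all tested genes 13.7% passed, 7.7% higher and 5.99% lower in knock-out muscle, so 2 of 10 is near the background. Fbxo32 and Trim63 had slightly lower means in knock-out muscle, with overlapping values. Foxo3 had a higher and Foxo4 a lower mean, neither past the test alone. The ratio of Foxo4 to Foxo3, among 8 pairs chosen with earlier results of these data known, separated the genotypes. Single genes did so in 14.4% of all tested genes. The call of this ratio (exact permutation, adjusted p under 0.05) was lost after quantile normalization and in 9 of 10 cases with 1 mouse left out. In those 9 cases the exact permutation p was the smallest possible with 1 mouse fewer (0.0159, adjusted p = 0.0635). Outside the 10 genes, 7 of 26 other known FoxO target genes were higher and 1 was lower, 30.8% beside 13.7% of all tested genes. Mt2, Cdkn1a and Pdk4 showed the largest differences. This list was chosen with earlier results of these data known, and FoxO activity was not measured.

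The values are regularized log (rlog) values of DESeq2, that is read counts on a log2 scale, corrected for library size and shrunken per gene, more so where reads are few. A difference of rlog values thus understates a log2 fold change of counts, and neither depth nor counting error can be read from this table. Genotypes were compared with limma over all 14289 tested genes with Benjamini-Hochberg adjustment, and a gene was called changed at an adjusted p under 0.05. Beside limma, the 10 values of a gene were compared with a two-sided exact permutation test, whose smallest possible p is 0.00794. Des itself (chromosome 1, 75360329 to 75368579 on GRCm38) ran from 11.76 to 11.89 in knock-out and from 16.10 to 17.74 in wild-type mice, which matches the genotype labels of all 10 mice. Wild-type mouse 3 stood apart: over all genes it correlated with its group at 0.982 on average, against 0.989 to 0.991 for the rest of that group, and its summed values were 1.48 times the median mouse. Where leaving it out turned the direction of a genotype difference or moved that difference by over 1.5 times, both values are given. None of the 10 genes lies on chromosome 1, which carries Des.

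Foxo1 (ENSMUSG00000044167, chromosome 3, 52268336 to 52353221) encodes the FoxO protein that also drives gluconeogenic genes in liver. Its rlog values were 9.88, 9.86, 10.59, 10.21 and 10.36 in knock-out mice 1 to 5 and 9.98, 10.17, 10.001, 10.28 and 10.72 in wild-type mice 1 to 5. The genotypes overlapped over most of their range, and the difference of -0.05 (standard error 0.17, limma adjusted p = 0.871) lay well within the spread of either genotype. Without wild-type mouse 3 it was -0.11 (limma adjusted p = 0.723). Foxo3 (chromosome 10, 42181841 to 42276755), the factor first tied to Fbxo32 transcription in atrophy, was 9.82, 9.92, 10.53, 10.05 and 10.02 in knock-out and 9.84, 9.87, 9.50, 9.86 and 9.99 in wild-type mice. Of the 5 knock-out mice, 3 exceeded every wild-type mouse, and wild-type mouse 3 was the lowest of all. The difference of 0.25 (standard error 0.13, limma adjusted p = 0.241; exact permutation p = 0.0873) did not pass. It was 0.18 without wild-type mouse 3 and 0.14 without knock-out mouse 3, the highest of all. Foxo4 (X chromosome, 101254528 to 101260873), the most abundant of the 3 FoxO transcripts per length of exon, was 12.08, 12.12, 12.32, 12.03 and 12.03 in knock-out and 12.39, 12.39, 12.21, 12.18 and 12.29 in wild-type mice. Here 4 of 5 knock-out mice lay below every wild-type mouse. Knock-out mouse 3 alone reached into the wild-type range, and the difference was -0.17 (standard error 0.09, limma adjusted p = 0.232; exact permutation p = 0.0476).

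To compare members with each other, the difference of 2 genes was formed inside each mouse for 8 pairs, which removes any factor that scales a whole library. The pairs were chosen with earlier results of these data known. Their p-values are thus descriptions, and the adjustment covers only these 8 pairs. Foxo4 minus Foxo3 was 2.26, 2.20, 1.80, 1.99 and 2.01 in knock-out mice and 2.55, 2.52, 2.71, 2.31 and 2.30 in wild-type mice. Every knock-out value lay below every wild-type value. Among single genes, 14.4% of those tested separated the genotypes completely, and the share among pairs of genes was not determined. The balance moved by -0.43 on the log2 scale (exact permutation p = 0.00794, adjusted p = 0.0317 over 8 pairs of genes). Without wild-type mouse 3 it moved by -0.37, and the exact p was the smallest that 5 against 4 mice allow (0.0159, adjusted p = 0.0635). After quantile normalization the shift was -0.35 (exact permutation, adjusted p = 0.0952). Foxo1 minus Foxo3 was also lower in knock-out muscle (0.11 ± 0.15 against 0.42 ± 0.22, SD, n = 5 each), without passing after adjustment (exact permutation p = 0.0397, adjusted p = 0.106).

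**Figure D1:**
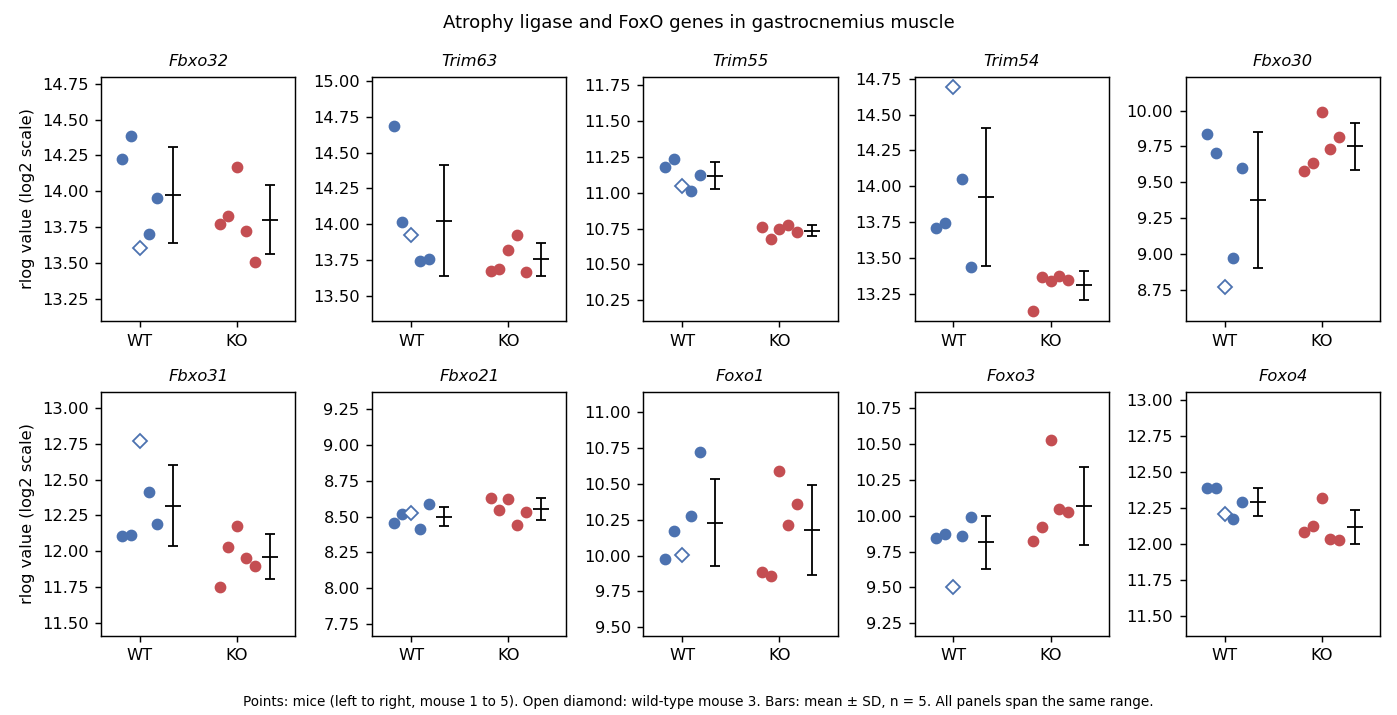
rlog values (log2 scale) of the 10 genes in each mouse, wild-type (WT, blue) and desmin knock-out (KO, red), with the mean ± SD of 5 mice beside the points and wild-type mouse 3 as an open diamond. Trim55 and Trim54 separate the genotypes completely, whereas the points of Fbxo32, Trim63 and Foxo1 overlap.

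Fbxo32 (ENSMUSG00000022358, chromosome 15, 58175879 to 58214932) encodes atrogin-1, the F-box protein that marks MyoD and the translation factor eIF3f. Its values were 13.78, 13.83, 14.17, 13.72 and 13.51 in knock-out mice 1 to 5 and 14.23, 14.38, 13.60, 13.70 and 13.95 in wild-type mice 1 to 5. The genotypes overlapped, with the highest value in wild-type mouse 2 and the lowest in knock-out mouse 5. The means of 13.80 ± 0.24 and 13.97 ± 0.33 (SD, n = 5 each) differed by -0.17 (standard error 0.16, limma adjusted p = 0.523). The 95% interval of this difference runs from 0.70 to 1.13 times the wild-type level. Without wild-type mouse 3, the lowest wild-type mouse for this gene, the difference was -0.27 (limma adjusted p = 0.247), and without wild-type mouse 2, the highest, it was -0.07 (limma adjusted p = 0.804). An antisense gene, Gm15943, shares 186 of its exon bases with Fbxo32 but had a mean rlog value of only 2.29.

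Trim63 (ENSMUSG00000028834, chromosome 4, 134315120 to 134329629) encodes MuRF1, which marks thick filament proteins. It was 13.68, 13.69, 13.82, 13.93 and 13.67 in knock-out mice and 14.69, 14.02, 13.92, 13.75 and 13.76 in wild-type mice. The knock-out mice were tightly grouped (SD 0.11), whereas wild-type mouse 1 stood far above the rest and gave the wild-type group an SD of 0.39. The difference was -0.27 (standard error 0.16, limma adjusted p = 0.298; exact permutation p = 0.111), with a 95% interval from 0.65 to 1.05 times the wild-type level. Leaving out each mouse in turn kept the difference between -0.34 and -0.10, the latter without wild-type mouse 1. Fbxo32 minus Trim63 was 0.04 ± 0.23 in knock-out and -0.05 ± 0.34 in wild-type mice (SD, n = 5 each; exact permutation p = 0.603), so no shift between these ligases was detectable. The genotypes differed by 0.10 in this ratio, and by 0.03 without wild-type mouse 3. With limma's sample weights, which gave wild-type mouse 3 a weight of 0.10 and knock-out mouse 4 a weight of 4.21, Fbxo32 (-0.50, adjusted p = 0.00353) and Trim63 (-0.40, adjusted p = 0.0359) both passed as lower.

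The start of Trim63 is shown because its letters match both a hormone receptor motif and a FoxO motif, and the start of Trim54 because Trim54 changed most among the 10 genes. Each window holds 250 bases before and 50 after the RefSeq start (GRCm38.p6, forward strand), which is chr4:134314870-134315169 for Trim63 and chr5:31116362-31116661 for Trim54. The Trim54 window ends before the GENCODE start of that gene (31116712), so its RefSeq start lies upstream of the GENCODE start. Capitals mark matches, on either strand, to the FoxO core GTAAACA, the glucocorticoid receptor palindrome (GAACA and TGTTC with 3 bases of any kind between them), the MEF2 motif (CTA and TAG with 4 bases of any kind between them) and the E-box CAGCTG.
Trim63: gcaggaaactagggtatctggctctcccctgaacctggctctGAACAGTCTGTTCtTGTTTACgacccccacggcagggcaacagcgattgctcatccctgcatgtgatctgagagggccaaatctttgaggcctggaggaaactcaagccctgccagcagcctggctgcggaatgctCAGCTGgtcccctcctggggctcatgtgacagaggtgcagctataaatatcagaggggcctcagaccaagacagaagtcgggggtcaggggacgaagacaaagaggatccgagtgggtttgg
Trim54: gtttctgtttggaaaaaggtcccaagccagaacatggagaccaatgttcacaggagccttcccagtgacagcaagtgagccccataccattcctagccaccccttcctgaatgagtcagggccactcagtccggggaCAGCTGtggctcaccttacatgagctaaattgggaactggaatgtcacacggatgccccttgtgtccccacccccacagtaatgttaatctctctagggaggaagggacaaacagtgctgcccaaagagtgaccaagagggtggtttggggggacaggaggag

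In Trim63 the palindrome occupies bases 43 to 55 of the window (chr4:134314912-134314924), and the FoxO core, on the reverse strand, bases 57 to 63 (chr4:134314926-134314932), with a single base between them. The palindrome occurs in 18 of 32544 promoter windows of the same length (0.0553%), the FoxO core in 3.66%, the E-box in 16.4% and the MEF2 motif in 3.7%. Windows were found for 7 of the 10 genes, without Fbxo32, Trim55 and Foxo4. Among these 7, Trim63 held the palindrome, the FoxO core and an E-box, Trim54 held an E-box, and Foxo1, Foxo3, Fbxo21, Fbxo30 and Fbxo31 held no match in these 300 bases. A match describes letters, and no match says nothing of what binds there. Nr3c1, which encodes the glucocorticoid receptor, differed by -0.27 between genotypes (standard error 0.16, limma adjusted p = 0.283). Fkbp5, a gene that this receptor induces, differed by -0.38 (standard error 0.24, limma adjusted p = 0.338). Its highest value of all was in knock-out mouse 3 (12.16). The other knock-out mice (10.50, 10.69, 10.93 and 11.12) lay below every wild-type mouse (11.27 to 11.77). Fkbp5 was chosen after its values were seen, and the activity of the glucocorticoid receptor was not measured. The Fkbp5 values alone thus do not show whether that activity differed between genotypes.

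Trim55 (ENSMUSG00000060913, chromosome 3, 19644474 to 19692421) encodes MuRF2, which binds titin and microtubules and works with MuRF1 in the sarcomere. Its values were 10.76, 10.68, 10.75, 10.78 and 10.72 in knock-out mice and 11.18, 11.24, 11.05, 11.01 and 11.12 in wild-type mice. The highest knock-out mouse stayed under the lowest wild-type mouse, and both groups were narrow (SD 0.04 and 0.09). The difference of -0.38 (standard error 0.08, limma adjusted p = 0.00498; exact permutation p = 0.00794) kept its call when any of the 10 mice was left out, with values between -0.41 and -0.35.

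Trim54 (ENSMUSG00000062077, chromosome 5, 31116712 to 31137630) encodes MuRF3, a microtubule-binding ligase that, with MuRF1, turns over slow and fast myosin heavy chain. It was 13.13, 13.37, 13.34, 13.37 and 13.34 in knock-out mice and 13.71, 13.74, 14.69, 14.05 and 13.44 in wild-type mice. The groups did not overlap, although wild-type mouse 5 came within the spread of the knock-out mice of the highest knock-out value. Wild-type mouse 3 was the highest of all. The difference was -0.62 (standard error 0.19, limma adjusted p = 0.043; exact permutation p = 0.00794). It was -0.43 without wild-type mouse 3, where the spread was smaller and the adjusted p 0.0141. When any knock-out mouse or wild-type mouse 2 or 4 was left out, the adjusted p lay between 0.052 and 0.103, and the call was lost in those 7 of 10 cases. The antisense gene Gm15469 overlaps 26.6% of the Trim54 exon bases, and its mean rlog value was 1.46.

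Among the 10 genes, 2 were called changed, which stands beside 13.7% of all tested genes, and the same 2 had genotypes that did not overlap, beside 14.4% of all tested genes (6.97% lower and 7.45% higher). Without wild-type mouse 3 the 2 genes were again the only ones called, beside 17.4% of all tested genes (8.11% lower and 9.34% higher). The share is near the background. With sample weights 6 of the 10 genes passed, all lower, Fbxo31 (-0.21) and Foxo4 (-0.29) among them, while the number of changed genes over the whole table rose to 4220. Of 7 markers of fast fibers, 3 were also lower in knock-out muscle (Mybpc2, Actn3 and Myh4) and none higher. The summed level of these 7 markers ran from 21.62 to 21.87 (log2) in knock-out and from 22.03 to 22.87 in wild-type mice, without overlap. Wild-type mouse 3 had the highest summed level and the highest Trim54 value (14.69). Its Trim55 value (11.05) lay below those of wild-type mice 1, 2 and 5. The part of the fast fiber markers in the fall of Trim54 and Trim55 was not tested. In whole muscle, fewer fibers of a type and less RNA per fiber cannot be told apart. The ratio of Trim55 to Trim63 (exact permutation p = 0.548) and that of Trim54 to Trim63 (p = 0.286) did not differ detectably between genotypes, so the 3 muscle RING finger genes were not shown to change unequally. In all 10 mice these ratios differed between genotypes by -0.11 and -0.35. Without wild-type mouse 1, the mouse with the highest Trim63 value, they differed by -0.26 and -0.57 (exact permutation, adjusted p = 0.0317 for each). Without wild-type mouse 3, the mouse with the highest Trim54 value, they differed by -0.11 and -0.13 (exact permutation, adjusted p = 0.847 for each).

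**Figure D2:**
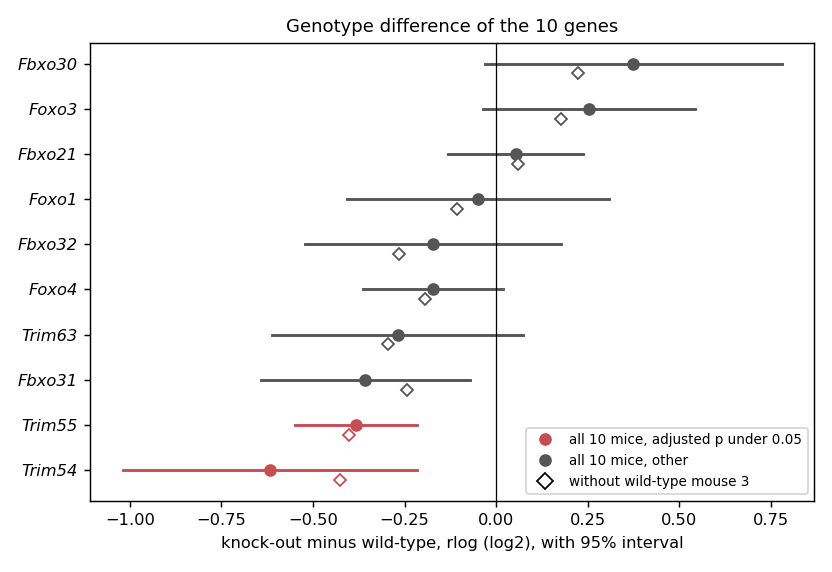
Difference between desmin knock-out and wild-type muscle (log2, rlog scale) for each gene, with the 95% interval from limma and the difference without wild-type mouse 3 as open diamonds. Only the intervals of Trim55, Trim54 and Fbxo31 exclude 0, and Trim55 and Trim54 (red) have an adjusted p under 0.05.

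Fbxo30 (ENSMUSG00000047648, chromosome 10, 11281330 to 11298052) encodes MUSA1, an F-box protein that BMP signaling holds down in muscle and that rises on denervation. Its values were 9.58, 9.63, 9.99, 9.73 and 9.81 in knock-out mice and 9.84, 9.70, 8.77, 8.97 and 9.60 in wild-type mice. Wild-type mice 3 and 4 lay far below all others, and the remaining wild-type mice shared the knock-out range. The difference of 0.37 (standard error 0.19, limma adjusted p = 0.219) dropped to 0.22 without wild-type mouse 3. Relative to Fbxo32 in the same mouse, Fbxo30 was -4.20, -4.20, -4.18, -3.99 and -3.70 in knock-out and -4.39, -4.68, -4.83, -4.73 and -4.35 in wild-type mice. All 5 knock-out ratios lay above all 5 wild-type ratios, a shift of 0.55 (exact permutation p = 0.00794, adjusted p = 0.0317 over 8 pairs), and the shift was 0.49 without wild-type mouse 3 (p = 0.0159, the smallest possible, adjusted p = 0.0635) and 0.40 after quantile normalization (adjusted p = 0.0635). Neither gene passed alone, and the ratio does not say which of them moved. As for all 8 pairs, these p-values are descriptions, and the share of separated ratios among pairs of genes was not determined.

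Fbxo31 (chromosome 8, 121549440 to 121578806), whose protein marks cyclin D1 and whose transcript is FoxO-dependent in wasting muscle, was 11.75, 12.03, 12.18, 11.95 and 11.90 in knock-out and 12.11, 12.11, 12.77, 12.41 and 12.19 in wild-type mice. Of the knock-out mice, 4 lay below every wild-type mouse, and wild-type mouse 3 was highest. The difference was -0.36 (standard error 0.13, limma adjusted p = 0.0952; exact permutation p = 0.0238), and -0.24 without wild-type mouse 3. Fbxo21 (chromosome 5, 117976730 to 118010201), which encodes SMART, an F-box protein required for denervation atrophy, was the most even of the 10. It ran from 8.44 to 8.63 in knock-out and from 8.41 to 8.59 in wild-type mice, and the difference was 0.05 (standard error 0.09, limma adjusted p = 0.72). Its 95% interval spans 0.91 to 1.18 times the wild-type level.

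**Figure D3:**
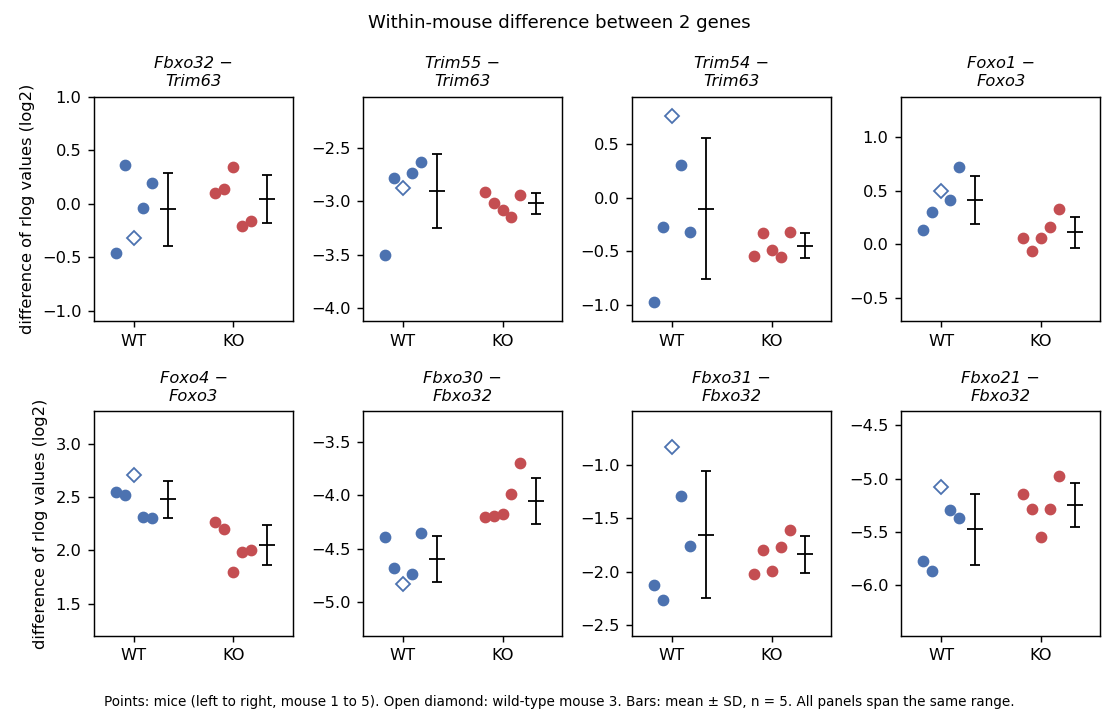
Difference of the rlog values of 2 genes within each mouse (log2), wild-type (WT) and desmin knock-out (KO), with the mean ± SD of 5 mice and wild-type mouse 3 as an open diamond. For Foxo4 minus Foxo3 the knock-out points all lie under the wild-type points, for Fbxo30 minus Fbxo32 they all lie above them, and the other 6 pairs overlap.

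To compare levels between genes, values were expressed per kilobase of exon (log2 of the level per kb, all exons of GENCODE M21 joined). In wild-type muscle the order was Trim54 (13.41 ± 0.48), Trim63 (12.52 ± 0.39), Fbxo32 (11.17 ± 0.33), Foxo4 (10.49 ± 0.10), Fbxo31 (9.86 ± 0.28), Trim55 (9.71 ± 0.09), Foxo1 (7.11 ± 0.30), Fbxo30 (6.999 ± 0.47), Foxo3 (6.89 ± 0.18) and Fbxo21 (6.03 ± 0.07), each as mean ± SD of 5 mice. This span corresponds to 166-fold. Neighbours that did not differ beyond their spread were Fbxo31 and Trim55, with Fbxo31 above in 3 of 5 wild-type mice, Foxo1 and Fbxo30 (3 of 5), and Fbxo30 and Foxo3 (3 of 5). Every other neighbour was ordered the same way in all 5 wild-type mice. The first 6 places were the same by mean in knock-out muscle, whereas Fbxo30 (7.37 ± 0.16) and Foxo3 (7.15 ± 0.27) stood above Foxo1 (7.06 ± 0.31), and Fbxo30 exceeded both in all 5 knock-out mice.

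Knock-out mouse 3 had the highest knock-out value of Fbxo32, Fbxo30, Fbxo31, Foxo1, Foxo3 and Foxo4, thus of 6 of the 10 genes, whereas it was highest for 23.8% of all tested genes. Of 26 other FoxO target genes it was highest for 14. Wild-type mice spread more widely than knock-out mice for 6 of the 10 genes, among them all 3 muscle RING finger genes. A wider wild-type spread was not particular to these genes. Over all tested genes, wild-type mice correlated less with their own group (0.982 to 0.991 on average) than knock-out mice did (0.996 to 0.997). The genes whose values followed Fbxo32 most closely over the 10 mice, by the root mean square difference of deviations from the wild-type mean, were Ube4a, BB123696, Nle1, Zfp407 and Exd1 (0.116 to 0.145, against a median of 0.381 over tested genes). For Trim63 they included Fibin, Atl2, Ermp1 and Zfp189 (0.147 to 0.166, median 0.398). None of these 9 genes was called changed. Of the other atrophy genes, Foxo4 lay closest to both ligases, in place 32 for Fbxo32 and place 212 for Trim63.

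No gene of the machinery that F-box proteins dock on was called. Of 14 genes for the SCF core and for other F-box proteins, none passed in limma, with a median difference of 0.05 beside -0.003 over all tested genes, and 2 had an unadjusted p under 0.05 (Cand1 and Fbxo40). Cul1 differed by 0.06 (standard error 0.10), and by 0.03 without wild-type mouse 3. Skp1a differed by 0.14 (standard error 0.14), and by -0.01 without that mouse, which also took the median of these 14 genes to 0.007. Fbxo40, a muscle F-box gene, differed by -0.25, and by -0.15 without it. Of 32 other ubiquitin enzymes of muscle, 1 rose and 1 fell, 6.25% beside 13.7% of all tested genes. Asb2, a cullin adaptor that marks filamins, fell by 0.61 (standard error 0.13, limma adjusted p = 0.00823), with all knock-out values between 14.09 and 14.34 and all wild-type values between 14.36 and 15.18. Trim72, the membrane repair protein MG53, rose by 0.27 (standard error 0.08, adjusted p = 0.0493), a call that ended in 9 of 10 cases with 1 mouse left out and under most other settings, median centring among them. Trim32, the ligase that marks desmin filaments for disassembly, was 8.65 ± 0.09 in knock-out and 8.90 ± 0.13 in wild-type mice (SD, n = 5 each; adjusted p = 0.105).

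Upstream of FoxO, the PI3K-Akt list moved in both directions. Of its 22 genes, 2 rose and 3 fell, which is 22.7% beside 13.7% of all tested genes. Prkaa1, a catalytic subunit of AMPK, which phosphorylates FoxO3, rose by 0.87 (standard error 0.10, limma adjusted p = 7.65e-05), lying between 10.27 and 10.42 in knock-out and between 9.21 and 9.66 in wild-type mice. Pik3ca, the catalytic PI3K subunit, rose by 0.48 (standard error 0.13, adjusted p = 0.0266). Akt1 (-0.61, standard error 0.15, adjusted p = 0.0151) and Sgk1 (-0.56, standard error 0.17, adjusted p = 0.0411), kinases that hold FoxO proteins outside the nucleus, fell. Igf1 differed by 0.06 (standard error 0.14) and Insr by 0.33 (standard error 0.16), neither past the threshold, and without wild-type mouse 3 they differed by 0.12 and 0.16. Phosphorylation of FoxO was not measured in these data.

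Most called genes among the other FoxO targets were higher. Of 26 genes, 7 rose and 1 fell, 30.8% beside 13.7% of all tested genes, with a median difference of 0.22 beside -0.003 over all tested genes. This list and the others around the 10 genes were chosen with earlier results of these data known. Their shares are thus descriptions, and whether a list exceeds the background was not tested. Without wild-type mouse 3, 8 rose and 1 fell, with a median of 0.14. Cdkn1a, the cell cycle inhibitor p21, which p53 also induces, was 11.44 ± 0.21 in knock-out and 9.96 ± 0.11 in wild-type mice (SD, n = 5 each), a rise of 1.48 (standard error 0.11). Pdk4, which shuts pyruvate out of oxidation in fasting, rose by 1.25 (standard error 0.22, limma adjusted p = 0.00163). Mt2, a metallothionein, rose by 1.52 (standard error 0.29, adjusted p = 0.00275), and Gadd45a, a denervation-responsive stress gene, by 1.05 (standard error 0.20, adjusted p = 0.0029). Knock-out mouse 3 stood far above the rest for Mt2 (11.99, the others 10.23 to 10.62). The remaining genes that rose were Sesn3, Mt1 and Ctsl. Of the autophagy genes in the list, Ulk1, which starts autophagosomes, fell by 0.34 (standard error 0.08, adjusted p = 0.0132), and Map1lc3b (-0.08, and -0.009 without wild-type mouse 3), Gabarapl1 (0.08) and Bnip3 (0.05) were not called.

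**Figure D4:**
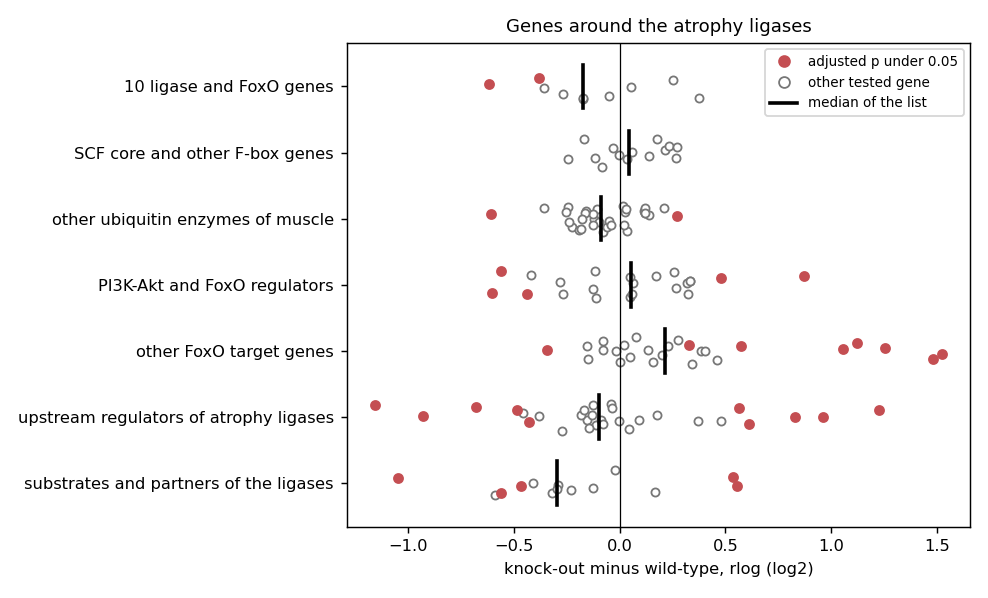
Difference between desmin knock-out and wild-type muscle (log2, rlog scale) for each tested gene of the 10 ligase and FoxO genes and of 6 lists around them, with called genes in red and the median of each list as a bar. The list of other FoxO target genes has 7 called genes to the right of 0 and 1 to the left, whereas the 2 called ligase genes lie to the left.

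Further upstream regulators of the atrophy ligases changed in both directions. Of 30 genes, 5 rose and 5 fell, 33.3% beside 13.7% of all tested genes, and 5 rose and 12 fell with sample weights. Myog, which switches on Fbxo32 and Trim63 after denervation, was 9.19 ± 0.33 in knock-out and 7.96 ± 0.31 in wild-type mice (SD, n = 5 each; difference 1.23, standard error 0.18, limma adjusted p = 3.75e-04), and Dach2, a repressor of Myog, fell by 1.16 (standard error 0.28, adjusted p = 0.0143). Gdf5, a BMP ligand, rose by 0.96 (standard error 0.14, adjusted p = 3.87e-04). Tnfrsf12a, the TWEAK receptor, rose by 0.83 (standard error 0.21, adjusted p = 0.0199), and Junb, which opposes FoxO3 in muscle, by 0.61 (standard error 0.15, adjusted p = 0.0134). Mstn, which encodes myostatin, fell by 0.93 (standard error 0.20, adjusted p = 0.00704), Smad3, its signal carrier, by 0.68 (standard error 0.09, adjusted p = 3e-04), and Mapk14, the p38 kinase, by 0.43 (standard error 0.09, adjusted p = 0.00582).

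Among 14 genes for proteins that the ligases mark or bind, 2 rose and 3 fell, 35.7% beside 13.7% of all tested genes. Mybpc2, the fast myosin-binding protein C and a MuRF1 target, fell by 1.05 (standard error 0.19, limma adjusted p = 0.00258), whereas Mybpc1, its slow counterpart, rose by 0.56 (standard error 0.17, adjusted p = 0.0456). Myod1 fell by 0.47 (standard error 0.12, adjusted p = 0.0219), Srf by 0.56 (standard error 0.15, adjusted p = 0.022), and Ppp3ca, the calcineurin catalytic subunit, rose by 0.54 (standard error 0.14, adjusted p = 0.0193). Eif3f differed by -0.29 (standard error 0.20; -0.09 without wild-type mouse 3) and was not called. The median of the list was -0.29, and -0.12 without wild-type mouse 3.

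Markers of some other cell types differed between genotypes, whereas those of others did not pass. All 6 myofiber markers were abundant, with a summed level from 21.56 to 21.72 (log2) in knock-out and from 21.82 to 22.74 in wild-type mice, and 1 of them, Myh4, was lower. Of 7 slow fiber markers, Tnnt1 and Tnni1 were higher and Myl3 lower. The summed levels of all 7 overlapped (14.95 to 15.48 in knock-out, 14.40 to 15.50 in wild-type mice). This overlap rested on wild-type mouse 3 (15.50). The other wild-type mice, at 14.40 to 14.93, lay below every knock-out mouse. Of 6 fibroblast markers 4 were higher (Lum, Col1a2, Col1a1 and Col3a1; summed level 13.82 to 14.42 against 13.36 to 14.29), and of 5 endothelial markers 3 were lower (Cdh5, Pecam1 and Tek; 11.47 to 11.97 against 11.98 to 12.32). None of 8 macrophage, 4 adipocyte and 4 satellite cell markers was called in limma, and no unadjusted p among them was under 0.05. All 5 T cell markers lay under the expression limit, the highest single value being 1.88. The part of these shifts in the values of the ligase and FoxO genes was not tested.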

How the data were processed

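Gastrocnemius RNA of 5 desmin knock-out and 5 wild-type mice was sequenced from stranded mRNA libraries. The submitters' processing notes name cutadapt 2.5, STAR 2.5.4a, Subread 1.6.1, DESeq2 and GRCm38. The authors deposited log2-scale rlog values, 1 column per mouse. The strand setting of the counting and the rlog settings are not given in the sources used here, and sequencing depth is unknown. Groups come from the labels.

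Genes whose rlog values averaged log2 of 10 or more were tested with limma 3.58.1 (trend, R 4.3.3), with Benjamini-Hochberg adjustment over 14289 genes, and steps were tested on simulated data. Members were also compared with exact permutation tests over the 252 splits of the mice (Python 3.11.15, numpy 2.4.6), and so were 8 within-mouse pairs. Symbols, positions and exon lengths come from GENCODE M21 (54165 of 54232 identifiers matched). Alternatives were other expression limits, centring, quantile normalization, prior variance, sample weights, replicate numbers as a block, a threshold of 0.01 and leaving out each mouse. Members and lists were chosen with earlier results of these data known. Named genes were Des, the 10 members, up to 4 called genes per list and direction, and the 5 genes most like Fbxo32 and Trim63. The other genes named (Sesn3, Mt1, Ctsl, and the genes of the lists that were not called) were chosen after their values were seen. Of the genes the rule named, 2 are not reported here.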

Additional observations from a re-analysis of the deposited data

Results flagged for a closer look

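Of 110 groups of 5 mice examined for a single value far from the other 4 by Dixon's ratio, 11 stood out, and chance flags about 1 in 20 groups, thus about 5.5 here. Wild-type mouse 3 accounted for 5 of the 11. Its Des value was 17.74 (the other wild-type mice 16.10 to 16.55), Akt1 11.66 (10.73 to 10.96), Ppp3ca 12.23 (12.76 to 12.91), Tnnt1 12.43 (11.14 to 11.50) and Actn3 19.34 (17.92 to 18.24). Among the atrophy ligases, Trim54 was 13.13 in knock-out mouse 1, below the 13.34 to 13.37 of the other knock-out mice. Trim55 minus Trim63 was -3.51 in wild-type mouse 1, the mouse with the highest Trim63 value, against -2.87 to -2.64 in the others. Knock-out mouse 3 had Mt2 at 11.99 (10.23 to 10.62 in the other knock-out mice), Col1a2 at 11.33 (11.76 to 11.92) and Col3a1 at 11.60 (12.32 to 12.44). Dach2 was 5.59 in knock-out mouse 5 (5.17 to 5.27).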

How the results depend on the processing

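Over 27 results, 19 of them under 18 alternatives and the 8 pairs under 12, 438 values were compared with the reported ones. Of these, 350 kept their direction and their side of the threshold or, for counts of genes, stayed within 1.5 times. The count of members changed was 1 at an adjusted p under 0.01, where Trim54 (-0.62) was lost and 994 genes passed, with 1 of the other ubiquitin enzymes, 1 PI3K-Akt gene, 5 upstream regulators and 1 substrate. Under sample weights 4220 genes and 6 members changed, the added ones being Fbxo32 (-0.50), Trim63 (-0.40), Fbxo31 (-0.21) and Foxo4 (-0.29), all lower, while Foxo1 turned to 0.033. The lists then gave 3 (SCF, 1 higher and 2 lower), 12 (other ubiquitin enzymes, 2 and 10), 9 (PI3K-Akt, 2 and 7), 13 (FoxO targets, 9 and 4) and 17 (upstream regulators, 5 and 12). Without the expression limit, with a limit of 50 and with a single prior variance, 1 of the other ubiquitin enzymes passed. Under quantile normalization Foxo4 minus Foxo3 was -0.35 (exact permutation, adjusted p = 0.0952) and Fbxo30 minus Fbxo32 0.40 (adjusted p = 0.0635). The cause of these shifts was not tested.

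Replicate numbers did not pair the mice: correlations of same-numbered mice ran from -0.22 to 0.07, and no mouse correlated best with its own number. With the replicate block, 1 of the other ubiquitin enzymes passed, and Foxo4 minus Foxo3 (-0.43) and Fbxo30 minus Fbxo32 (0.55) had an adjusted p of 0.167 by exact sign flips, whose smallest unadjusted p is 0.0625.

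Leaving out each mouse gave 1399 to 2494 changed genes, 1 to 2 members, 0 to 1 SCF genes, 1 to 4 other ubiquitin enzymes, 2 to 6 PI3K-Akt genes and 2 to 5 substrates. Trim54 ran from -0.74 to -0.43 and lost its call in 7 of 10 cases, and Foxo1 ran from -0.15 to 0.073, positive without knock-out mouse 1 or 2 or wild-type mouse 5. Within-mouse ranges were -0.0045 to 0.20 (Fbxo32 minus Trim63), -0.26 to -0.046 (Trim55 minus Trim63), -0.57 to -0.13 (Trim54 minus Trim63), -0.48 to -0.36 (Foxo4 minus Foxo3), 0.46 to 0.61 (Fbxo30 minus Fbxo32) and -0.34 to 0.021 (Fbxo31 minus Fbxo32). Trim55 minus Trim63 and Trim54 minus Trim63 passed only without wild-type mouse 1 (exact permutation, adjusted p = 0.0317 for each), Fbxo32 minus Trim63 reversed without that mouse, and Fbxo31 minus Fbxo32 reversed without wild-type mouse 3. Foxo4 minus Foxo3 and Fbxo30 minus Fbxo32 had an adjusted p between 0.0317 and 0.0635, past the threshold in 1 of 10 cases each, as fewer mice raise the smallest exact p to 0.0159. rlog values understate differences of genes with few reads, and their depth is unknown.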
